A study of Mus musculus with 46 samples.

Results

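The RNA of 10 imprinted genes was followed across 46 mouse libraries in 11 groups: Nnat, Meg3, Rian, Mirg, Cdkn1c, Peg3, Plagl1, Grb10, H19 and Igf2, out of 55487 genes listed for each library. The genes were taken by symbol. Nnat was chosen by its lower level in Clec16a KO islets on HFD, so the values of that contrast are a description with no test. The other 9 genes were listed by name, and the whole set was chosen with earlier results of these data known.

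The first experiment was made of mouse islets labelled Tfam control (5 libraries from females, 3 from males) or Tfam KO (4 from females, 2 from males). The second was made of islets whose genotype label is Clec control or Clec KO and whose descriptions name Clec16a, on a diet written RFD (4 control, 4 KO) or HFD (6 control, 5 KO). The third was made of livers labelled control (6), Mfn DKO (4) or Tfam KO (3), with AAV, a common short form for a viral vector, in their descriptions. Islets were kept in culture for a night and livers were frozen before RNA was taken. The labels used here give no Cre line, promoter, strain or age, and do not say what the controls carry or whether a library pools animals. They call the libraries biological replicates, and name sex for the Tfam islets alone.

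Imprinted genes are transcribed mainly from the copy inherited from one parent, and many of them act on growth and on the supply of nutrients. Paternally expressed members such as Igf2, Peg3 and Plagl1 and maternally expressed members such as H19 and Cdkn1c are often described as opposing each other in the growth of the fetus. In islets, Nnat encodes neuronatin, a small protein of the endoplasmic reticulum membrane linked to the processing of preproinsulin, and the maternally expressed non-coding RNAs of the Meg3 cluster are known from β cells. In liver, H19 and Igf2 are abundant before birth and low afterwards.

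Positions are those of GENCODE M21 on GRCm38. Nnat (ENSMUSG00000067786, 157560078 to 157562522 on chromosome 2, plus strand) lies inside the span of Blcap, which runs on the other strand, and shares 0 exonic bases with it. Peg3 (ENSMUSG00000002265, 6703892 to 6730431), H19 (ENSMUSG00000000031, 142575529 to 142578143), Igf2 (ENSMUSG00000048583, 142650766 to 142666816) and Cdkn1c (ENSMUSG00000037664, 143458339 to 143461050) lie on the minus strand of chromosome 7. Plagl1 (ENSMUSG00000019817, 13060504 to 13131694) is on the plus strand of chromosome 10 and Grb10 (ENSMUSG00000020176, 11930508 to 12038683) on the minus strand of chromosome 11. Meg3 (ENSMUSG00000021268, 109541001 to 109571726), Rian (ENSMUSG00000097451, 109603940 to 109661716) and Mirg (ENSMUSG00000097391, 109729764 to 109749460) follow each other on the plus strand of chromosome 12. Igf2 shares 3596 exonic bases on its own strand with Gm49394, so its counts are uncertain. On the opposite strand, Meg3 shares 1228 exonic bases with Gm26906 and Cdkn1c shares 625 with Gm44732. Whether reads were counted by strand is not given in the sources used here.

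RefSeq promoter windows (GRCm38.p6) were found for 8 of the 10 members. The 250 bases before a start are printed 5′ to 3′ on the gene's own strand for Nnat and Grb10, the members called in islets of both models, and for Peg3, whose window also holds the start of the imprinted gene Usp29. Capitals mark CG dinucleotides. They lie at chr2:157559828-157560077 (plus strand, Nnat), chr11:12037421-12037670 (minus strand, Grb10, 1 of the 2 windows given for it) and chr7:6730420-6730669 (minus strand, Peg3).
Nnat: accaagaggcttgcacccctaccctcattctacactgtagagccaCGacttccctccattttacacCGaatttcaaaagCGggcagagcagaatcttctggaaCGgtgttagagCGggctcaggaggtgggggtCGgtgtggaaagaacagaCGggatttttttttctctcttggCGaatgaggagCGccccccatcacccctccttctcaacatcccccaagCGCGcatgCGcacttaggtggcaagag
Grb10: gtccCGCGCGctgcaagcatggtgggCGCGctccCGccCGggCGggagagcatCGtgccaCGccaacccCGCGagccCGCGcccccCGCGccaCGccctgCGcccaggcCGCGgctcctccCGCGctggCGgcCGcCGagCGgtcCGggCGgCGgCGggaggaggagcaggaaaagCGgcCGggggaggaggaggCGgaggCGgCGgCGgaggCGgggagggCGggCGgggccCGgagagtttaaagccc
Peg3: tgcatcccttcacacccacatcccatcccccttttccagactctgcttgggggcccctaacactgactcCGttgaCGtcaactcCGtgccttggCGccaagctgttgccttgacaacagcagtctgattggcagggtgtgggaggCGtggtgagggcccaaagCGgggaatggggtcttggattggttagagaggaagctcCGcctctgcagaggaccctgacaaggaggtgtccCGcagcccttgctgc
The Grb10 window held 40 CG dinucleotides, a number reached by 1.31% of all 32851 windows. The other Grb10 window, at chr11:12027972-12028221, held 8 (reached by 43.0%). The Nnat window held 12 (reached by 33.5%) and the Peg3 window 8 (43.0%), against a median of 6. The letters GGGGCCCC, searched on both strands as a core of the PLAGL1 site, were found in the Peg3 window and in 0.889% of all windows. Neither TGATGNAA, searched for the ATF4 and CEBP factors (3.45% of windows), nor GCCATNTT, searched for YY1 (3.91%), was found in the member windows.

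H19 hosts the microRNA miR-675 and had the largest fold difference among the members. The mature forms from RefSeq, with the seed (bases 2 to 8) in capitals, lie at chr7:142577112-142577133 (5p) and chr7:142577078-142577099 (3p) on the minus strand. The deposited values are of the host transcript, so the mature forms have no value here.
mmu-miR-675-5p: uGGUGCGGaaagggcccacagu
mmu-miR-675-3p: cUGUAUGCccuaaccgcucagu

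Total counts ran from 55223041 to 83342809 in the Tfam islets, 16235173 to 55810879 in the Clec16a islets and 41961114 to 56894510 in the livers. Tfam was lower in Tfam KO islets (log2 fold change -1.21, SE 0.06) and in Tfam KO livers (14.7 ± 1.42 (SD, n = 3) against 58.9 ± 4.02 (SD, n = 6) CPM, counts scaled to a common library size). In Mfn DKO livers, Mfn1 was at 20.2 ± 4.30 (SD, n = 4) CPM beside 80.8 ± 7.58 (SD, n = 6) in controls, and Mfn2 at 38.1 ± 5.35 (SD, n = 4) beside 156.7 ± 28.4 (SD, n = 6). Clec16a RNA was not lower in the libraries labelled KO (log2 fold change 0.13, SE 0.13 on RFD and 0.08, SE 0.11 on HFD), and which part of the gene is changed is not given, so this checks nothing. In 2 libraries several genes lay apart from their group: Clec16a KO HFD library 4 was near the controls for Nnat, Grb10 and Peg3, and Tfam KO liver 2 was high in the fetal gene Afp. Changes of Nnat, Grb10 and Peg3 on HFD, and of the members called in Tfam KO livers, are given with and without these libraries. All 8 β-cell markers reached 1 CPM in every islet group. In livers all 7 hepatocyte markers did, while Ins1, an insulin gene, and Gcg, the glucagon gene, were at 0 in every library. Ins2, the other insulin gene, was under 1 CPM in all livers and above 0 only among the controls. In control livers 1 of 8 β-cell and 3 of 6 α-cell markers reached 1 CPM.

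Levels of different genes were compared on the authors' TPM, which accounts for transcript length, as mean ± SD over libraries. In HFD control islets of the Clec16a experiment (n = 6), Meg3 (200.4 ± 21.0 TPM) and Peg3 (191.7 ± 42.0 TPM) were highest and did not differ beyond their spread. They were followed by Nnat (80.7 ± 24.7 TPM), Rian (41.6 ± 7.98 TPM), Mirg (17.7 ± 2.52 TPM) and Grb10 (10.8 ± 1.89 TPM). Plagl1 (2.63 ± 0.847 TPM) and Cdkn1c (2.58 ± 0.531 TPM) overlapped, and Igf2 was at 0.268 ± 0.0961 TPM. These HFD controls entered the contrast that chose Nnat. In RFD controls (n = 4) Nnat (149.9 ± 71.6 TPM) overlapped with Meg3 (219.4 ± 51.6 TPM) and Peg3 (197.2 ± 41.6 TPM). In female Tfam control islets (n = 5) the order was Peg3 (257.2 ± 76.7 TPM), Meg3 (103.3 ± 14.4 TPM), Nnat (53.3 ± 26.6 TPM), Rian (35.9 ± 4.69 TPM), Grb10 (19.2 ± 3.32 TPM) and Mirg (4.70 ± 0.718 TPM), with Nnat and Rian within their spread. In control livers (n = 6) H19 (2.72 ± 2.76 TPM), Meg3 (2.10 ± 2.33 TPM), Cdkn1c (1.71 ± 0.403 TPM), Grb10 (1.10 ± 0.337 TPM), Peg3 (1.05 ± 0.462 TPM) and Nnat (0.990 ± 0.378 TPM) overlapped. H19 had 0 to 5 counts in each islet library, where a count of 0 allows up to 0.185 CPM in the shallowest. H19 in islets and Igf2 in livers (0 to 10 counts) did not pass the filter on low counts, which left 9 members tested in each experiment.

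Within a gene, groups were compared in CPM on library sizes scaled by TMM, which assumes that most genes do not change. A member is called here when edgeR's quasi-likelihood test gives an adjusted p of 0.05 or less over all genes tested.

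Tfam encodes the protein that packages mitochondrial DNA and starts its transcription. In Tfam KO islets Nnat, Meg3, Rian and Mirg were lower and Grb10 was higher, with TMM scaling. These are 5 of the 9 tested members, 4 lower and 1 higher, where 20.9% of all 19752 genes were called (11.6% higher, 9.29% lower). The median log2 fold change was -0.46 over the members and -0.01 over all genes. In bulk islets, fewer cells of a type and less RNA per cell cannot be told apart.

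Nnat was at 56.2, 73.5, 24.1, 32.9 and 39.7 CPM in the female control libraries and at 40.7, 30.7 and 28.1 CPM in the male ones. In Tfam KO it was at 20.2, 24.4, 17.1 and 16.8 CPM in females and at 12.7 and 9.98 CPM in males. Female KO library 2 lay just above the lowest control, and the other 5 KO libraries lay below every control. Nnat was 2.50-fold lower in KO (log2 fold change -1.32, SE 0.21, edgeR adjusted p = 0.000271), and the change lay between -1.43 and -1.18 with any 1 of the 14 libraries left out.

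The RNAs of the Meg3 cluster differed less, and in TMM-scaled CPM without overlap. Meg3, a long non-coding RNA, was at 906.3, 799.8, 873.8, 888.7 and 962.9 CPM in female and 1185, 887.4 and 839.8 CPM in male controls. In Tfam KO it was at 790.4, 656.9, 617.1 and 606.8 CPM in females and 698.8 and 596.0 CPM in males (log2 fold change -0.47, SE 0.09, edgeR adjusted p = 0.00141). All 6 KO libraries lay below all 8 controls. Rian, the host of many small nucleolar RNAs, ran from 369.0 to 415.0 CPM in KO and from 519.7 to 668.5 CPM in controls (log2 fold change -0.49, SE 0.07, edgeR adjusted p = 9.88e-05). Mirg, which spans 14 microRNA hairpins of RefSeq on its strand, ran from 10.2 to 14.8 CPM in KO and from 15.5 to 34.9 CPM in controls (log2 fold change -0.66, SE 0.15, edgeR adjusted p = 0.00417). As for Meg3, neither had a KO library within the range of controls on this scale. The share of all genes that separate in this way is not given here. On the authors' TPM the genotypes overlapped. In females Meg3 ran from 92.4 to 126.5 TPM in KO and from 81.8 to 117.5 TPM in controls. Rian ran from 32.0 to 37.4 and from 28.0 to 40.5 TPM, and Mirg from 3.96 to 5.17 and from 3.55 to 5.53 TPM. Over these 14 libraries, which share the genotype difference, log2 CPM of Meg3 correlated with Rian at r = 0.91 (rho 0.84) and with Mirg at r = 0.91 (rho 0.81).

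Meg3, Rian and Mirg were called with TMM and with library totals alone (-0.26, -0.28 and -0.45), but not on the authors' TPM with limma, where the unit, the offset and the test differ together. Insulin RNA filled less of the KO libraries: Ins2 was at 94598 ± 12279 (SD, n = 4) CPM in female KO and 173533 ± 31233 (SD, n = 5) CPM in female controls. The sum of the 8 β-cell markers, none of them at 0, ran from 105745 to 141450.4 CPM in female KO, 128786 to 129456 in male KO, 188462 to 295242 in female controls and 253542 to 267755 in male controls. Its part in the members' changes was not tested. On the authors' TPM the median of all tested genes was 0.30 higher in KO on the log2 scale, and 10115 genes were called higher and 272 lower with limma, against 2285 and 1834 with TMM. On that scale, log2(TPM + 0.5), Meg3 (-0.08, SE 0.11, limma adjusted p = 0.578), Rian (-0.09, SE 0.09, limma adjusted p = 0.419) and Mirg (-0.23, SE 0.16, limma adjusted p = 0.247) were not called. Nnat was still called lower (-0.86, SE 0.23, limma adjusted p = 0.00641) and Grb10 higher (0.93, SE 0.10, limma adjusted p = 4.25e-06). Relative to the median of all genes, Meg3 differed by -0.46 with TMM and by -0.37 on TPM.

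Grb10 encodes an adaptor that binds the insulin and IGF receptors and restrains their signalling. In controls it was at 91.5, 85.4, 84.9, 80.9 and 69.7 CPM in females and 63.1, 50.1 and 59.8 CPM in males. Tfam KO islets had 114.3, 99.9, 116.3 and 113.9 CPM in females and 110.1 and 88.6 CPM in males. Male KO library 2 lay among the female controls, the other 5 KO libraries lay above every control, and within each sex the genotypes did not overlap. Grb10 was 1.47-fold higher in KO (log2 fold change 0.56, SE 0.09, edgeR adjusted p = 0.000216).

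Marker sums of other cell types did not move alike in both sexes. The 4 δ-cell markers summed to 2543 to 3670.2 CPM in female KO and 4334 to 7509.5 CPM in female controls, and overlapped in males. In males the KO sums lay above the controls for 6 α-cell markers (38707 to 51622 against 24691 to 34388 CPM), 8 fibroblast and stellate markers (211.7 to 243.1 against 163.8 to 192.3 CPM, Pdgfra under 1 CPM), 5 endothelial markers (298.9 to 310.1 against 257.2 to 292.7 CPM), 6 macrophage markers (87.3 to 90.4 against 25.2 to 42.5 CPM, Clec4f at 0) and 6 duct markers (478.1 to 549.2 against 404.4 to 460.3 CPM, Cftr under 1 CPM). In females all 5 of these overlapped. Their part in the members' changes was not tested.

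Members outside these 5 were not called by edgeR with all libraries. Peg3, a zinc-finger protein, was at 1629 ± 339.1 (SD, n = 5) CPM in female and 1641 ± 272.4 (SD, n = 3) CPM in male controls. Its KO levels of 1327 ± 166.8 (SD, n = 4) CPM in females and 1285 ± 277.5 (SD, n = 2) CPM in males overlapped with them (-0.32, SE 0.12, edgeR adjusted p = 0.0837 with TMM, and 0.09 on TPM). Peg3 was called lower by DESeq2 (-0.33, SE 0.13, DESeq2 adjusted p = 0.0430) and without female control library 4 (-0.39, SE 0.10, edgeR adjusted p = 0.00973). Differences were -0.01, SE 0.11 for Plagl1, a zinc-finger regulator of other imprinted genes, -0.02, SE 0.25 for Cdkn1c, the cyclin-dependent kinase inhibitor p57, and -0.46, SE 0.29 for Igf2, the fetal growth factor.

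**Figure D1:**
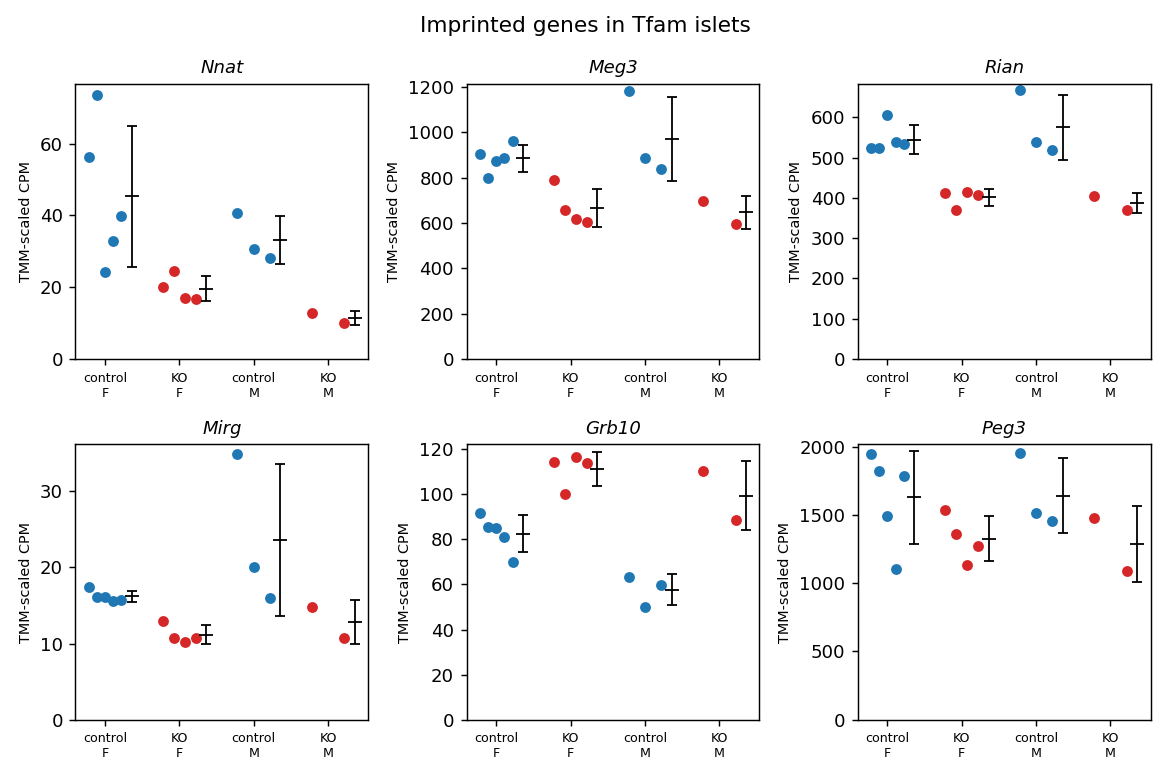
TMM-scaled CPM (vertical axis, from 0) of 6 imprinted genes in each Tfam islet library by genotype and sex. Points are libraries (blue control, red KO), and black marks show the mean ± SD of a group: Meg3, Rian and Mirg do not overlap between genotypes, while Peg3 does.

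**Figure D2:**
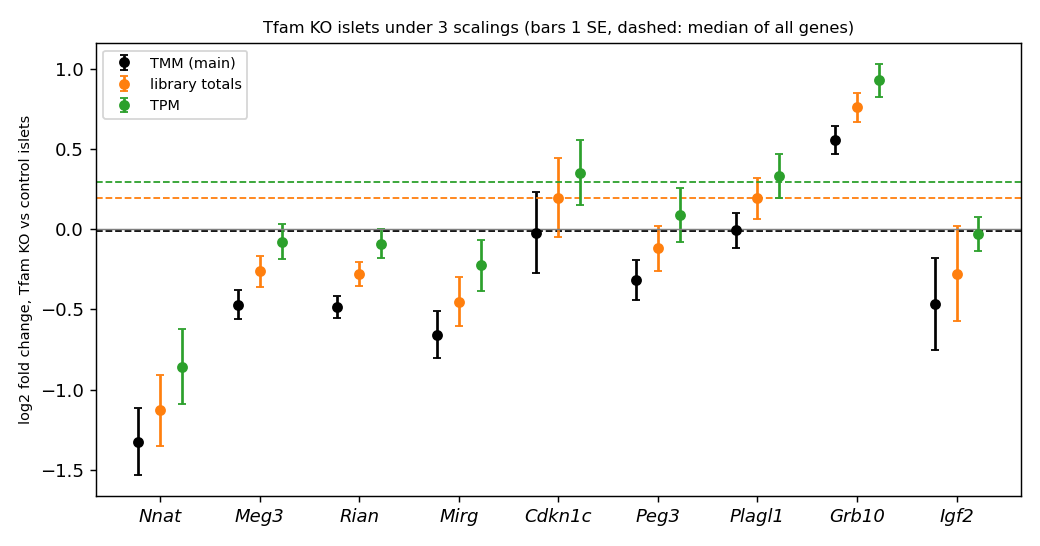
Log2 fold change (Tfam KO minus control islets, bars 1 SE) of the 9 tested members with TMM, with library totals alone and on the authors' TPM. Dashed lines mark the median of all tested genes (-0.01, 0.20 and 0.30), and Meg3, Rian and Mirg lie below their own line under all 3.

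Whether the genotype difference depended on sex was tested as an interaction. With edgeR 0 members and 0% of all genes were called, while 2 members (Cdkn1c, -1.14, SE 0.45, and Grb10, 0.36, SE 0.16) and 1230 genes had an unadjusted p below 0.05. DESeq2 called 0 members and 34 genes. Between male and female controls, 1.53% of genes were called, among them 1 member, Grb10 (-0.52, SE 0.11, edgeR adjusted p = 0.0280). All 3 male controls lay below all 5 female controls. That call was lost when the 2 control groups were fitted alone (edgeR adjusted p = 0.119) and without male control library 1, 2 or 3 (edgeR adjusted p = 0.0710, 0.190 and 0.0530).

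Clec16a encodes an E3 ligase of mitophagy, the removal of damaged mitochondria. On RFD, in libraries that did not choose Nnat, Nnat was lower and Grb10 higher in KO islets. These 2 of 9 tested members were called, where 7.52% of all 17254 genes were (3.99% higher, 3.54% lower). The members' median was -0.08 and that of all genes -0.0016.

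Nnat on RFD was at 198.8, 56.2, 113.1 and 150.7 CPM in controls and at 17.8, 11.1, 17.2 and 11.4 CPM in KO. The highest KO library lay far below the lowest control. The level was 9.03-fold lower (log2 fold change -3.17, SE 0.43, edgeR adjusted p = 0.00116), and the change lay between -3.42 and -2.89 with any 1 library left out. The spread in this fit was estimated together with the HFD libraries, which chose Nnat. With the RFD groups fitted alone the change was -3.16, SE 0.34 (edgeR adjusted p = 0.0003). By the lane number in the library names, the mean difference in log2 CPM was -2.76 in lane 7 (3 KO, 2 controls) and -3.50 in lane 8 (1 KO, 2 controls).

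Grb10 on RFD was at 61.7, 45.6, 57.9 and 54.1 CPM in controls and at 62.4, 87.2, 105.2 and 101.1 CPM in KO. The groups did not overlap, but KO library 1 came close to control library 1. The level was 1.63-fold higher (log2 fold change 0.70, SE 0.17, edgeR adjusted p = 0.0150), with 0.71 in lane 7 and 0.64 in lane 8. The call was lost without KO library 3 (0.61, SE 0.18, edgeR adjusted p = 0.0511) and on TPM (0.70, SE 0.20, limma adjusted p = 0.0587).

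Peg3 on RFD was at 1017, 1283, 1426 and 1408 CPM in controls and at 983.5, 1169, 901.9 and 710.6 CPM in KO. The groups overlapped, with KO library 2 among the controls and the other 3 below them (-0.45, SE 0.22, edgeR adjusted p = 0.230). Plagl1 differed by -0.66, SE 0.35, and Igf2 by 0.48, SE 0.45. In the Meg3 cluster none was called: Meg3 differed by -0.16, SE 0.19, Rian by -0.08, SE 0.13 and Mirg by 0.08, SE 0.20. Cdkn1c differed by 0.17, SE 0.31. Each experiment was fitted alone, so the difference between Tfam KO and Clec16a KO islets in this cluster was not tested.

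Markers of other cells differed with the Clec16a genotype as well. On RFD the sum of the 5 endothelial markers, none at 0, was 485.8 to 598.6 CPM in KO and 279.4 to 306.5 CPM in controls. That of the 8 fibroblast and stellate markers was 187.9 to 257.6 CPM in KO and 130.2 to 143.6 CPM in controls, with Pdgfra under 1 CPM in both. The β-cell sums overlapped (197120.0 to 230314 CPM in KO, 211383 to 349239 CPM in controls). The part of these markers in the changes of Nnat and Grb10 was not tested.

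On HFD, the contrast that selected Nnat, the values are a description. Nnat ran from 33.6 to 93.2 CPM in the 6 controls (median 78.9) and was at 9.86, 10.4, 9.09, 32.1 and 9.96 CPM in KO. KO library 4 lay just under the lowest control and the other 4 lay well below it. The log2 fold change was -2.32, SE 0.37, or -2.88 without KO library 4, and the lane values were -3.02 (lane 7, 2 KO and 3 controls) and -1.91 (lane 8, 3 and 3). Over all genes 9.57% were called (5.62% higher, 3.95% lower). No count of called members is given, because this contrast chose Nnat.

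Grb10 on HFD ran from 39.2 to 56.8 CPM in controls (median 46.1) and was at 72.2, 83.5, 81.3, 53.7 and 95.4 CPM in KO. KO library 4 lay inside the control range and the other 4 above it (0.70, SE 0.14, or 0.80 without KO library 4). Peg3 ran from 1064 to 1594 CPM in controls (median 1252) and was at 588.1, 767.1, 870.8, 1484 and 788.5 CPM in KO, again with library 4 inside the control range. Its log2 fold change was -0.48, SE 0.19, or -0.74 without library 4 and -0.54 with lane as a covariate. Plagl1 differed by -0.55, SE 0.30, and Meg3, Rian, Mirg, Cdkn1c and Igf2 by -0.13, -0.04, -0.01, -0.20 and 0.15.

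**Figure D3:**
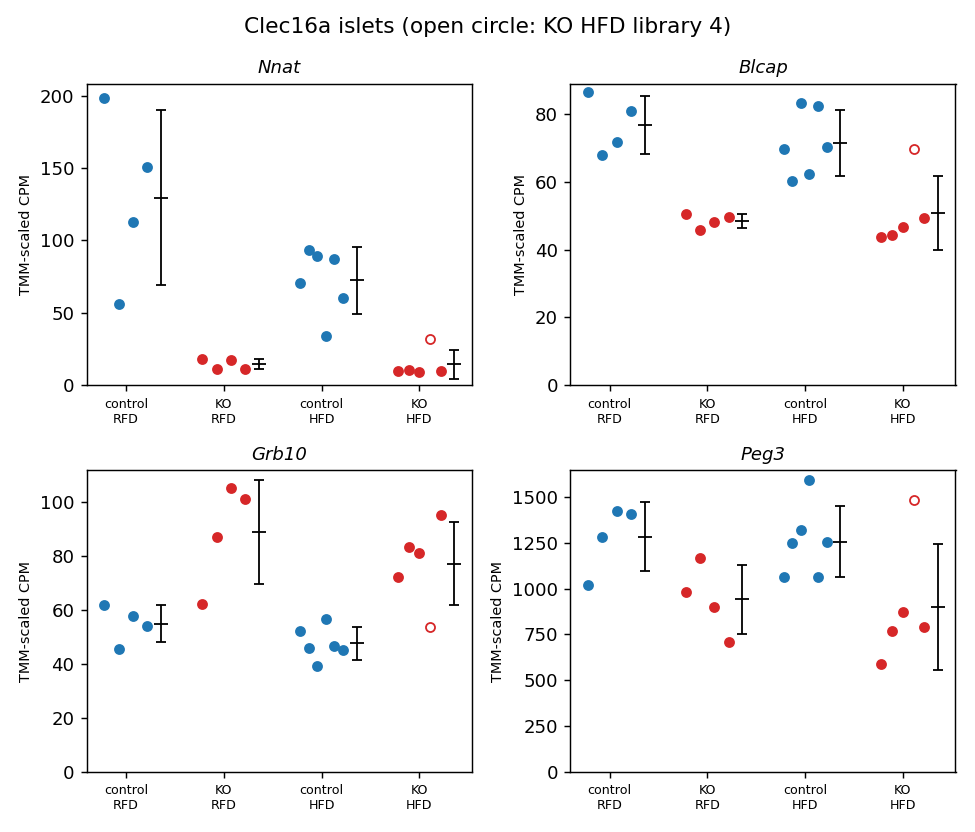
TMM-scaled CPM (vertical axis, from 0) of Nnat, its host gene Blcap, Grb10 and Peg3 in each Clec16a islet library by genotype and diet, with the mean ± SD of each group in black. The open circle is KO HFD library 4, the highest KO HFD library for Nnat, Blcap and Peg3 and the lowest for Grb10.

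Diet was compared within each genotype. Nnat was chosen with the HFD libraries, so it is left out of the member counts of this paragraph. In controls edgeR called 0 members and 0.0406% of genes between HFD and RFD, with 0 members below an unadjusted p of 0.05, and DESeq2 called 0 members. Nnat was at 72.3 ± 22.9 (SD, n = 6) CPM on HFD and 129.7 ± 60.3 (SD, n = 4) CPM on RFD, with values that overlapped (log2 fold change -0.84, SE 0.35). The HFD controls also entered the contrast that chose Nnat, so this is a description. In KO edgeR called 0 members and 0.0116% of genes, with 1 member below an unadjusted p of 0.05, and DESeq2 0. That member was Cdkn1c, lower on HFD (-0.84, SE 0.30, edgeR adjusted p = 0.678). For genotype by diet, edgeR called 0 members and 0% of genes, with 0 members and 406 genes below an unadjusted p of 0.05, and DESeq2 called 0 members and 20 genes. Since Nnat was chosen from some of these libraries, its difference between diets of 0.85, SE 0.53 is given with no test.

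Across the 19 Clec16a islet libraries, the genes with the highest Pearson correlation to Nnat in log2 CPM were Dhrs4 (0.97), Rtl5 (0.96), Cnn3 (0.96), Carmil3 (0.95) and Vps8 (0.95), out of 17245. Those nearest to Meg3 were Leng8 (0.94), Cpsf7 (0.93), Sfswap (0.92), Snrnp70 (0.92) and Gm45487 (0.92). Nnat correlated with Blcap at 0.94 (rho 0.89) and with Grb10 at -0.77 (rho -0.65). These are descriptions over libraries that share genotype, diet and lane. Blcap, an imprinted gene that spans Nnat, was at 86.8, 68.0, 71.9 and 81.1 CPM in RFD controls and at 50.7, 45.8, 48.3 and 49.6 CPM in RFD KO. Its groups did not overlap (log2 fold change -0.66, SE 0.14, edgeR adjusted p = 0.00760). On HFD the difference was -0.49, SE 0.12, and in Tfam KO islets -0.11, SE 0.05 (edgeR adjusted p = 0.148).

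The mitofusins Mfn1 and Mfn2 join the outer membranes of mitochondria. In Mfn DKO livers H19 was the 1 called member of 9 tested. Over all 17024 genes 9.87% were called (5.23% higher, 4.64% lower). The members' median was 0.21 and that of all genes 0.02.

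H19, a maternally expressed non-coding RNA, ran from 0.211 to 7.09 CPM in the 6 control livers (median 2.28) and was at 52.6, 298.7, 54.5 and 136.6 CPM in Mfn DKO. All 4 Mfn DKO livers lay above all controls. It was 44.1-fold higher (log2 fold change 5.46, SE 1.26, edgeR adjusted p = 0.0192). The call was lost without Mfn DKO library 2 (4.72, SE 1.27, edgeR adjusted p = 0.0560). The sum of the 8 fibroblast and stellate markers was 331.5 to 422.2 CPM in Mfn DKO and 263.1 to 330.6 CPM in controls, without overlap, while the sums of the hepatocyte, duct, endothelial and macrophage markers overlapped. Their part in the change of H19 was not tested.

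The livers carry no sex label, but 6 of the 13 had 88.3 to 104.7 CPM of the Y-linked Ddx3y, and the other 7 had 380.3 to 787.8 CPM of Xist. H19 followed this split: it was at 0.365, 0.211 and 0.596 CPM in the 3 controls with Ddx3y and at 6.10, 7.09 and 3.95 CPM in the 3 with Xist. In Mfn DKO it was at 52.6 and 54.5 CPM with Ddx3y and at 298.7 and 136.6 CPM with Xist. Both kinds of Mfn DKO liver lay above the controls of their own kind. The split was read from the RNA and is no group of the study, so no test was made between the kinds. It was not particular to the members. Pairs of control livers were compared over all genes with at least 40 counts, by the chi-square of their counts per degree of freedom. This was 42.1 to 92.1 within a kind and 213.1 to 297.0 between the kinds. The share of all genes that separate by kind is not given here.

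Meg3 and Rian split the other way in controls. Meg3 was at 22.9, 52.4 and 25.5 CPM in the 3 controls with Ddx3y and at 2.91, 3.25 and 1.66 CPM in the 3 with Xist. In Mfn DKO it was at 1.48 and 16.2 CPM with Ddx3y and 1.18 and 1.16 CPM with Xist, and in Tfam KO at 1.56 CPM with Ddx3y and 3.29 and 1.34 CPM with Xist. Apart from Mfn DKO library 3, every KO liver was at the level of the controls with Xist or near it. Rian was at 9.24, 24.1 and 9.74 CPM in controls with Ddx3y and 1.31, 1.15 and 0.605 CPM in those with Xist, and followed Meg3 over the 13 livers (r = 0.98, rho 0.84). Neither was called by edgeR in Mfn DKO (Meg3 -1.85, SE 1.06, Rian -1.29, SE 1.06) or in Tfam KO (Meg3 -3.12, SE 1.28, edgeR adjusted p = 0.0827, Rian -2.41, SE 1.26), while DESeq2 called Meg3 lower in Tfam KO (-3.16, SE 1.13, DESeq2 adjusted p = 0.0191).

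The remaining members were not called in Mfn DKO livers with all libraries. Plagl1 was at 1.76, 1.78, 1.07 and 2.21 CPM and ran from 0.883 to 1.31 CPM in controls, so that 3 of 4 lay above all controls (0.64, SE 0.30, edgeR adjusted p = 0.183). Differences were 0.68, SE 0.63 for Grb10, -0.55, SE 0.99 for Peg3, 0.27, SE 0.37 for Cdkn1c, 0.21, SE 0.34 for Nnat and -0.76, SE 0.95 for Mirg. With Tfam KO liver 2 left out and the Xist level as a covariate, Peg3 was called lower in Mfn DKO (-0.53, SE 0.17, edgeR adjusted p = 0.0416).

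Tfam KO liver 2 stood apart from the other livers. Afp, the fetal serum protein α-fetoprotein, was at 10783 CPM there, at 5.31 and 4.45 CPM in the other 2 Tfam KO livers and from 1.07 to 2.81 CPM in controls. The 7 hepatocyte markers, none at 0, summed to 22134 CPM in the lowest Tfam KO liver, 58931 and 93471 CPM in the others and 92728 to 137157 CPM in controls. Cyp2e1, an enzyme of mature hepatocytes, was at 234.9 CPM in liver 2 and 2787 and 4796 CPM in the others. The changes of the members called in this contrast are given with and without it. Its part in them beyond these values was not tested.

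With all livers, 4 of 9 tested members were called in Tfam KO, all higher (Grb10, Peg3, Plagl1 and H19), where 29.3% of all genes were called (18.1% higher, 11.3% lower). The members' median was 0.43 and that of all genes 0.03. Without Tfam KO liver 2 the 1 called member was Grb10, where 14.5% of all genes were called.

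Grb10 ran from 3.42 to 6.35 CPM in control livers (median 4.41) and was at 18.2, 158.1 and 6.22 CPM in Tfam KO. Livers 1 and 2 lay above all controls and liver 3 inside their range. The log2 fold change was 3.71, SE 0.68, edgeR adjusted p = 0.00267, and without liver 2 it was 1.40, SE 0.37, edgeR adjusted p = 0.0268. Controls with Ddx3y, the kind of liver 1, were at 3.42 to 3.80 CPM, and controls with Xist, the kind of livers 2 and 3, at 5.02 to 6.35 CPM.

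Peg3 ran from 3.90 to 10.8 CPM in control livers (median 5.75) and was at 2.79, 472.4 and 5.48 CPM in Tfam KO. Liver 2 alone lay above the controls. The log2 fold change of 4.60, SE 1.06, edgeR adjusted p = 0.00771 turned to -0.68, SE 0.40, edgeR adjusted p = 0.287 without it, and it was called lower once Xist was also a covariate (-0.74, SE 0.23, edgeR adjusted p = 0.0388). The call was also lost on TPM (2.09, SE 1.11, limma adjusted p = 0.121). Controls were at 3.90 to 5.15 CPM with Ddx3y and 6.35 to 10.8 CPM with Xist. Usp29, which starts beside Peg3, was at 10.5 CPM in liver 2, at 0 in the other 2 Tfam KO livers and at up to 0.0205 CPM in controls.

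H19 in Tfam KO livers was at 0.688, 143.7 and 9.41 CPM, with liver 1 inside the range of all controls and livers 2 and 3 above it. Each lay above the controls of its own kind, which were at 0.211 to 0.596 CPM with Ddx3y and 3.95 to 7.09 CPM with Xist. Its log2 fold change was 4.06, SE 1.24, edgeR adjusted p = 0.0277, and without liver 2 0.70, SE 1.14, edgeR adjusted p = 0.729. The call was also lost with the 2 groups fitted alone, without control 1 or control 6 (edgeR adjusted p = 0.0600, 0.0517 and 0.0534) and on TPM (limma adjusted p = 0.0775). Plagl1 was at 1.80, 3.83 and 1.297 CPM (1.08, SE 0.32, edgeR adjusted p = 0.0233, and without liver 2 0.51, SE 0.28, edgeR adjusted p = 0.251). Nnat, Mirg and Cdkn1c were not called, with differences of 0.43, SE 0.37, -2.41, SE 1.19 and -0.24, SE 0.41, though Nnat was called higher on TPM (0.79, SE 0.29, limma adjusted p = 0.0309).

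**Figure D4:**
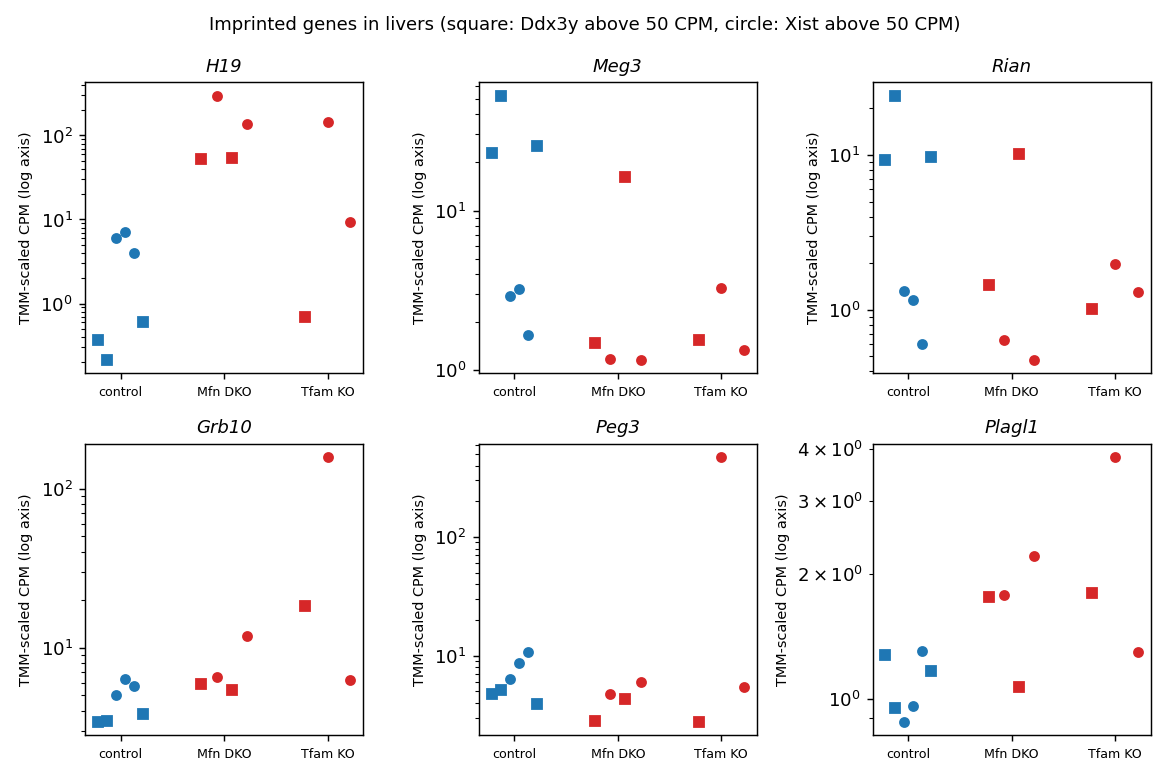
TMM-scaled CPM on a log axis of 6 members in each liver (blue control, red Mfn DKO or Tfam KO). Squares are livers with Ddx3y above 50 CPM and circles those with Xist above 50 CPM. The controls separate by symbol for H19, Meg3, Rian, Grb10 and Peg3, and the share of all genes that do so is not given here. Tfam KO liver 2 is the highest of its group for Grb10, Peg3, Plagl1 and H19.

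Between Tfam KO and Mfn DKO livers edgeR called 0 members and 0.294% of genes. Peg3 and Grb10 (2 members) had an unadjusted p below 0.05, and DESeq2 called 1 member, Grb10. H19 differed by -1.40, SE 1.39, edgeR adjusted p = 0.579 with liver 2.

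**Figure D5:**
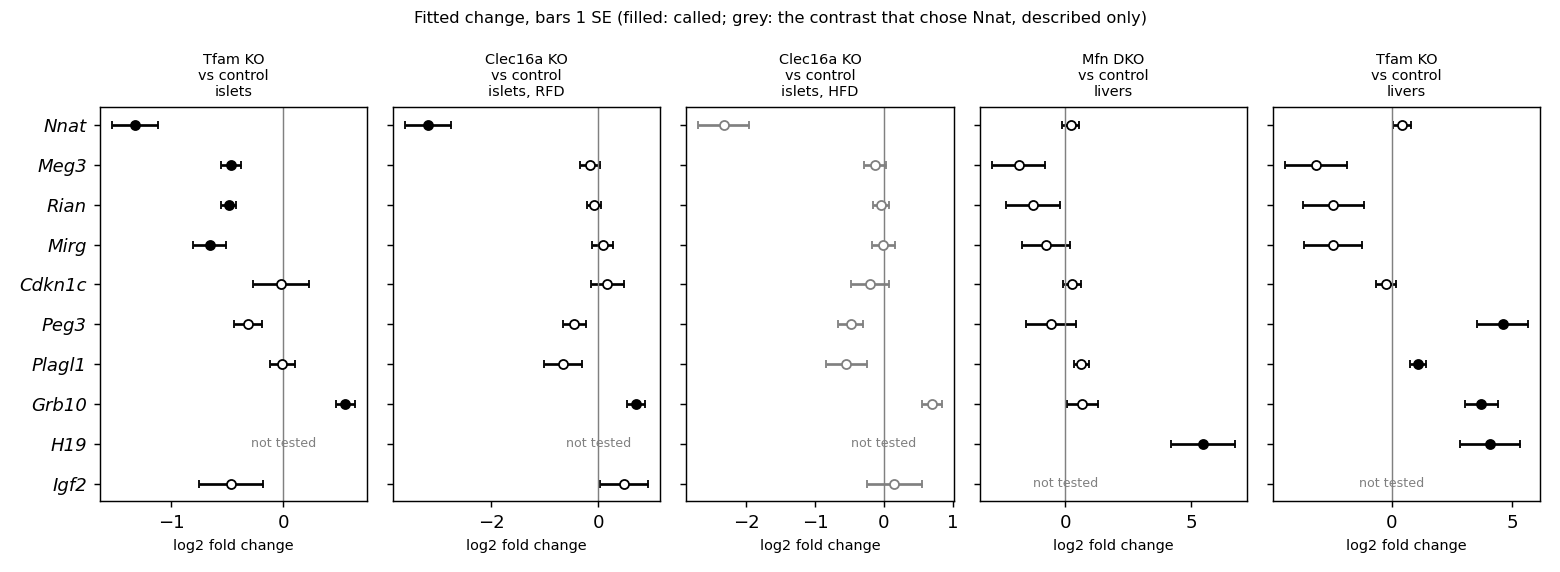
Log2 fold change with bars of 1 SE for the members in 5 comparisons, filled where called and grey in the contrast that chose Nnat. Nnat lies below 0 in Tfam KO and RFD islets, and on HFD, where its lower level was the reason for its choice. Grb10 lies above 0 in all 5 and is not called in Mfn DKO livers.

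Other imprinted genes were counted from a list of 43, of which 42 are in the files and 1, Dcn, is also a fibroblast marker. The counts of this and the next 3 lists stand beside 20.9% of all genes called in Tfam KO islets, 7.52% in Clec16a KO islets on RFD, 9.87% in Mfn DKO livers and 29.3% in Tfam KO livers. In Tfam KO islets 3 of 36 tested were higher and 6 lower with TMM (median -0.10), and 13 higher and 0 lower on TPM (median 0.23). The list's median lay below that of all genes with TMM (-0.01), with library totals (0.10 against 0.20) and on TPM (0.30). Tfpi2, a protease inhibitor, was higher on both scales (2.57, SE 0.27, edgeR adjusted p = 4.05e-06 with TMM and 1.96, SE 0.15 on TPM). Its mean level was low, at 1.87 CPM in KO and 0.324 CPM in controls. Usp29 and Nap1l5, called lower with TMM (-0.40, SE 0.08 and -0.48, SE 0.10), were at -0.0058, SE 0.09 and -0.0745, SE 0.10 on TPM and not called there.

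In Clec16a KO islets on RFD 1 of 31 was higher and 4 lower. Beside Blcap these were led by Dlk1, the paternally expressed neighbour of Meg3 (-1.74, SE 0.49), and the potassium channel gene Kcnk9 (2.28, SE 0.66), with edgeR adjusted p = 0.0356 and 0.0402, neither of them called on TPM. Mean levels were low, at 1.48 CPM in KO and 5.05 CPM in controls for Dlk1, and 1.36 and 0.270 CPM for Kcnk9. With TMM Dlk1 was higher in Tfam KO islets (1.06, SE 0.23, edgeR adjusted p = 0.00353), a difference between experiments that was not tested. Tfpi2, higher in Tfam KO islets, was lower on RFD (-2.55, SE 0.78, edgeR adjusted p = 0.0499), at 0.101 CPM in KO and 0.570 CPM in controls. That difference between experiments was not tested either. In Mfn DKO livers edgeR called 0 of 30, with 4 at an unadjusted p below 0.05, and DESeq2 called 1. In Tfam KO livers 5 were higher and 2 lower, and without liver 2 these were 1 and 1. Zrsr1 was lower with TMM (-0.55, SE 0.10, and -0.47, SE 0.11 without liver 2) but not on TPM (0.0562, SE 0.13). The non-coding RNA Airn, which overlaps Igf2r on the opposite strand, and Phlda2, a gene that restrains placental growth, were higher (2.36, SE 0.48 and 3.97, SE 0.92), and neither was called without liver 2. Mean levels were low, at 2.59 CPM in Tfam KO and 0.505 CPM in controls for Airn, and 1.04 and 0.0623 CPM for Phlda2. Igf2r was called higher too (1.52, SE 0.36), and whether reads were counted by strand is not given.

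Genes of the IGF and insulin receptor pathway, on which Grb10 acts, were counted from a list of 19. In Tfam KO islets 6 of 17 tested were higher and 1 lower (median 0.34), and on TPM 12 were higher and 0 lower (median 0.39, where that of all genes was 0.30). Akt2, a kinase of insulin signalling (0.54, SE 0.05), Igf2r, the receptor that clears IGF2 (0.44, SE 0.08), and Insr, the insulin receptor (0.41, SE 0.09), were higher with both. In Clec16a KO islets on RFD 2 of 14 were higher, the binding proteins Igfbp3 (0.70, SE 0.17) and Igfbp4 (0.90, SE 0.27), and 1 was lower, the receptor substrate Irs1 (-0.63, SE 0.13), while on TPM 0 were called with limma (4 at an unadjusted p below 0.05). In Mfn DKO livers the 1 call among 18 was Igfbp1, a binding protein secreted by hepatocytes (3.19, SE 0.59). In Tfam KO livers 4 of 18 were higher and 2 lower (median -0.05), and without liver 2 these were 1 and 1. Igfbp1 was higher there too (3.90, SE 0.63, and 2.36, SE 0.47 without liver 2), as were Igf2bp3 (3.97, SE 0.89) and Igf2r (1.52, SE 0.36) with all livers.

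Cdkn1c was set beside a list of 11 other inhibitors, D cyclins and their kinases, with 11, 11, 11 and 11 of them tested in the 4 comparisons. Calls were 3 higher and 1 lower in Tfam KO islets, 2 and 1 in Clec16a KO islets on RFD, 1 and 0 in Mfn DKO livers and 4 and 0 in Tfam KO livers (1 and 0 without liver 2). Cdkn1a, the inhibitor p21, was called higher in all 4 with TMM and on TPM (1.90, SE 0.22, 2.81, SE 0.45, 3.36, SE 0.63 and 4.69, SE 0.68 with TMM). Without liver 2 its difference in Tfam KO livers was 3.79, SE 0.64. Cdkn1c itself was not called in any of the 4.

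Neuronatin sits in the membrane of the endoplasmic reticulum, whose signal peptidase and protein channel were followed with 15 genes. In Tfam KO islets 4 were lower and 0 higher with TMM (median -0.21), and 0 lower and 6 higher on TPM (median 0.19). The list's median lay below that of all genes with TMM (-0.01), with library totals (0.0038 against 0.20) and on TPM (0.30). In Clec16a KO islets on RFD edgeR called 0 (median 0.23), with 4 at an unadjusted p below 0.05, and DESeq2 called 1.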

How the data were processed

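The RNA of 46 libraries in 11 groups, named in the labels, was analysed from the deposited table of each library. Per the file headers, each lists raw counts, TPM and CPM for 55487 genes; the authors' CPM equalled the count over the library total. The submitters' processing notes name STAR 2.6.1b, RSEM 1.3.1, featureCounts and the build GRCm38, without saying which program gave the counts. Positions came from GENCODE M21, which held 55141 of the identifiers.

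Separate fits were made per experiment with edgeR 4.0.16 under R 4.3.3 (TMM, filterByExpr on group, quasi-likelihood F-test, two-sided), with 1 mean per group, and with sex as an additive term for Tfam KO against control islets. Standard errors (SE) were derived as the absolute change divided by the root of the F statistic. Calls are at an adjusted p of 0.05 or less over all genes tested, in 11 comparisons. TPM was compared with limma 3.58.1 on log2(TPM + 0.5), an alternative chosen after seeing the data, as were library totals without TMM and the fit of livers without Tfam KO library 2 with Xist. A fold on that TPM scale understates the change of low genes. The other alternatives were size factors or the Wald test of DESeq2 1.42.0, no filter, a replicate block, lane or Xist as a covariate, no sex term, only the groups compared, and each library left out. Correlations used log2(CPM + 0.5).

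The members and gene lists were chosen with earlier results of these data known. Named were all 10 members, per list and comparison at most 3 called genes with the smallest adjusted p, the 5 genes most like Nnat and Meg3, markers and targeted genes. Blcap, Usp29, Dlk1, Tfpi2 on RFD, Afp, Cyp2e1, Ins2, Xist and Ddx3y were added after their values were seen. The procedure was tested on simulated data. Depth was 16235173 to 83342809 counts; a count of 0 allows up to 3 counts, for counting error only.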

Additional observations from a re-analysis of the deposited data

Results flagged for a closer look

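In 72 member-by-group sets of 4 to 6 libraries, 6 had 1 library far from the rest by Dixon's 95% critical value, which chance flags in about 1 of 20 sets. Nnat was at 32.1 CPM in Clec16a KO HFD library 4. In Mfn DKO livers, library 3 had 16.2 CPM of Meg3 and 10.1 CPM of Rian, and library 4 had 11.9 CPM of Grb10. In the Tfam islets, female control library 3 had 606.4 CPM of Rian and female KO library 2 had 99.9 CPM of Grb10. No cause was tested.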

How the results depend on the processing

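Counts of called members moved as follows. In Tfam KO islets 2 were called on TPM, and 6, Peg3 among them, by DESeq2 and without female control 4. Between the sexes it was 0 with the control groups alone and 0 to 1 with 1 library left out (0 without male control 1 or 2, and Mirg in place of Grb10 without male control 3). On RFD it was 1 on TPM and 1 to 2 with 1 library left out (1 without KO 3). In livers, leaving out 1 library gave 0 to 1 in Mfn DKO (0 without Mfn DKO 2), 1 to 4 in Tfam KO (1 without Tfam KO 2) and 0 to 2 between them (1 without Tfam KO 1, 2 without Tfam KO 3). Without Tfam KO 2 and with Xist as a covariate these were 2, 2 and 1, and DESeq2 gave 1 for the last. Signs turned for members that were not called, except Peg3 in Tfam KO livers. In Tfam KO islets Cdkn1c was 0.0232 with the replicate block, 0.0664 without sex, 0.20 on library totals, 0.35 on TPM and -0.14 to 0.12 with 1 library left out, Plagl1 likewise 0.0144, 0.0042, 0.19, 0.33 and -0.0641 to 0.05, and Peg3 0.0871 on TPM. On RFD, with 1 library left out, Meg3 was -0.27 to 0.0334, Rian -0.19 to 0.0184 and Cdkn1c -0.21 to 0.38. On HFD, TPM gave 0.0484 for Meg3, 0.14 for Rian and 0.13 for Mirg, library totals 0.0751 for Rian and 0.12 for Mirg, the groups alone 0.0019 for Mirg, and leaving out 1 library -0.10 to 0.0304 for Rian, -0.16 to 0.11 for Mirg and -0.0729 to 0.36 for Igf2. In Mfn DKO livers leaving out 1 gave -0.0544 to 0.38 for Nnat and -0.0271 to 0.42 for Cdkn1c. In Tfam KO livers Cdkn1c was 0.24 on library totals, 0.17 on TPM and -0.71 to 0.18 with 1 left out, and Peg3 -0.74 without Tfam KO 2 with Xist and -0.68 to 5.18 with 1 left out. Of the other-setting values 333 kept direction and side of the threshold, 15 lost and 6 gained a call. The cause was not tested.

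Library totals and TPM moved the median of all genes by over 0.1 in 4 comparisons, and with it the genes called higher and lower, in Tfam KO islets to 6208 and 617 on library totals. Elsewhere the split changed likewise: in Clec16a KO HFD islets 970 and 682 with TMM became 1775 and 352 on library totals (median 0.12) and 1856 and 217 on TPM (median 0.16), in Mfn DKO livers 891 and 790 became 1653 and 356 on library totals (median 0.21) and 2160 and 297 on TPM (median 0.24), and in Tfam KO livers 3073 and 1919 became 7250 and 904 on library totals (median 0.46) and 8672 and 895 on TPM (median 0.48). Over all genes, leaving out 1 library called 15 to 362 between the sexes (303 with all), 523 to 1224 on RFD (1298), 786 to 3369 on HFD (1652), 686 to 1444 in Mfn DKO livers (1681), 2504 to 7330 in Tfam KO livers (4992) and 24 to 4204 between those (50, lowest and highest by leaving out Mfn DKO 1 and Tfam KO 3). With the groups compared alone these were 12 between the sexes, 4338, 3228 and 7 in the livers, with the block 975 on HFD, 169, 395 and 6, and with DESeq2 985 between the sexes, 2870 in Mfn DKO and 1087 between the livers.

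Replicate numbers did not pair the libraries: the median correlation of same-numbered deviations was 0.0653 in Tfam islets, -0.0163 in Clec16a islets and 0.0873 in livers, and 5 of 13, 1 of 18 and 2 of 11 libraries correlated best with their own number. With the replicate block 0 members were called in Mfn DKO and 0 in Tfam KO livers, 6 in Tfam KO islets (Peg3 as well, -0.32) and 2 on RFD. Under it H19 differed by 5.21 in Mfn DKO livers (edgeR adjusted p = 0.120), and in Tfam KO livers Grb10 by 3.12 (edgeR adjusted p = 0.0746), Peg3 by 2.47, H19 by 2.53 and Plagl1 by 1.12.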

Other observations

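Between male and female Tfam control islets, 1.53% of all genes were called. Grb10 was among them, though its call was lost with the control groups fitted alone. Of 36 other imprinted genes tested, 4 were lower in males and 0 higher. Those with the smallest p were Sgce, a sarcoglycan gene (-0.99, SE 0.13, edgeR adjusted p = 0.00373), its neighbour Peg10, a gene derived from a retrotransposon (-1.28, SE 0.22, edgeR adjusted p = 0.0143), and Zim1, a zinc-finger gene near Peg3 (-0.72, SE 0.13, edgeR adjusted p = 0.0189). Peg3 itself differed by 0.01, SE 0.17. Without male control library 2 the whole comparison called 15 genes, against 303 with it. The cause was not tested.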
